A study of Mus musculus with 23 samples.

Results

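The BCL2 family holds the genes whose products decide, at the mitochondrial outer membrane, whether a stressed cell lives or dies. The 10 members followed here were *Bcl2*, *Bcl2l1*, *Mcl1*, *Bax*, *Bak1*, *Bid*, *Bcl2l11*, *Bbc3*, *Pmaip1* and *Bmf*, fixed by name and read from the array probes whose RefSeq accession belongs to each of them. All 10 passed the filter on dim probes and lay among the 15202 genes that were tested. *Bcl2l1* and *Mcl1* had 2 probes each and were read from the brighter one, and the 8 others had 1 probe.

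In this pathway the pro-survival proteins BCL2, BCL-XL (from *Bcl2l1*) and MCL1 hold back BAX and BAK, which otherwise form pores in the outer membrane and release cytochrome c. The BH3-only proteins start the process. BID, BIM (*Bcl2l11*) and PUMA (*Bbc3*) bind pro-survival proteins and can also activate BAX and BAK directly, while NOXA (*Pmaip1*) and BMF act mainly by occupying pro-survival partners. Blood progenitors depend on MCL1 for survival, and BCL-XL protects maturing erythroid cells.

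RNA was measured on 1-colour Agilent arrays in mouse ES cells (strain C57BL/6 per the labels) that carry human RUNX1-ETO, the fusion protein of t(8;21) leukaemia, under a tetracycline-responsive promoter, so that doxycycline (Dox) switches it on. All groups, with and without Dox, carried the transgene and intact *Runx1*, and the line was grown from picked colonies. The sorted stages of the blast culture were haemogenic endothelium (HE, KIT+Tie2+CD41-), the next stage that has gained CD41 (HE2, KIT+Tie2+CD41+) and floating progenitors that have lost Tie2 (KIT+Tie2-CD41+), and Dox was given early in that culture. The 4th stage was myeloid progenitors, grown from such progenitors in expansion medium with cytokines and given Dox for a short time while they expanded, so that stage and length of induction differ together. HE, HE2 and myeloid progenitors had 3 arrays without and 3 with Dox, and progenitors had 2 and 2. A further uninduced progenitor array, whose title names it a technical replicate, was not in the fit.

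Between 48.8 and 78.4% of spots were well above background on an array, and 0 spots were saturated. The lowest share was that of induced progenitor 2, 1 of the 2 induced progenitor arrays. The 3 slides did not hold all groups: slides 1 and 2 held the arrays of HE, HE2, uninduced progenitors and induced progenitor 1, and slide 3 held all myeloid progenitors, induced progenitor 2 and the further array. The mouse *Runx1t1* probe, whose human counterpart gives the ETO part of the transgene, was higher with Dox at every stage, by 1.24, 2.08, 3.96 and 2.06 on the log2 scale in the order given above. All values below are log2 intensities after normalization, changes are differences between group means on that scale, and a gene was called as having risen or fallen at an unadjusted P of at most 0.001 together with a change of at least 2-fold. P values were adjusted by the method of Benjamini and Hochberg across the 15202 genes. The arrays read RNA of whole sorted or cultured populations, in which fewer cells of a type and less RNA per cell cannot be told apart.

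Calls with Dox among the 10 members were counted beside those among all tested genes. In the order HE, HE2, progenitors, myeloid progenitors, the called members numbered 0, 0, 0 and 1, beside 7.09%, 7.22%, 3.73% and 6.31% of all tested genes, and the 1 was *Bid*, which fell in myeloid progenitors as did 1.18% of genes. At an unadjusted P of at most 0.05 in the same limma fit, the counts were 4, 3, 5 and 5 of the 10, beside 26.9%, 29.5%, 20.2% and 25.4% of all genes. The median change of the members was -0.23, 0.00, -0.30 and -0.01 at the 4 stages, against -0.008, -0.027, -0.044 and -0.018 for all genes.

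**Figure D1:**
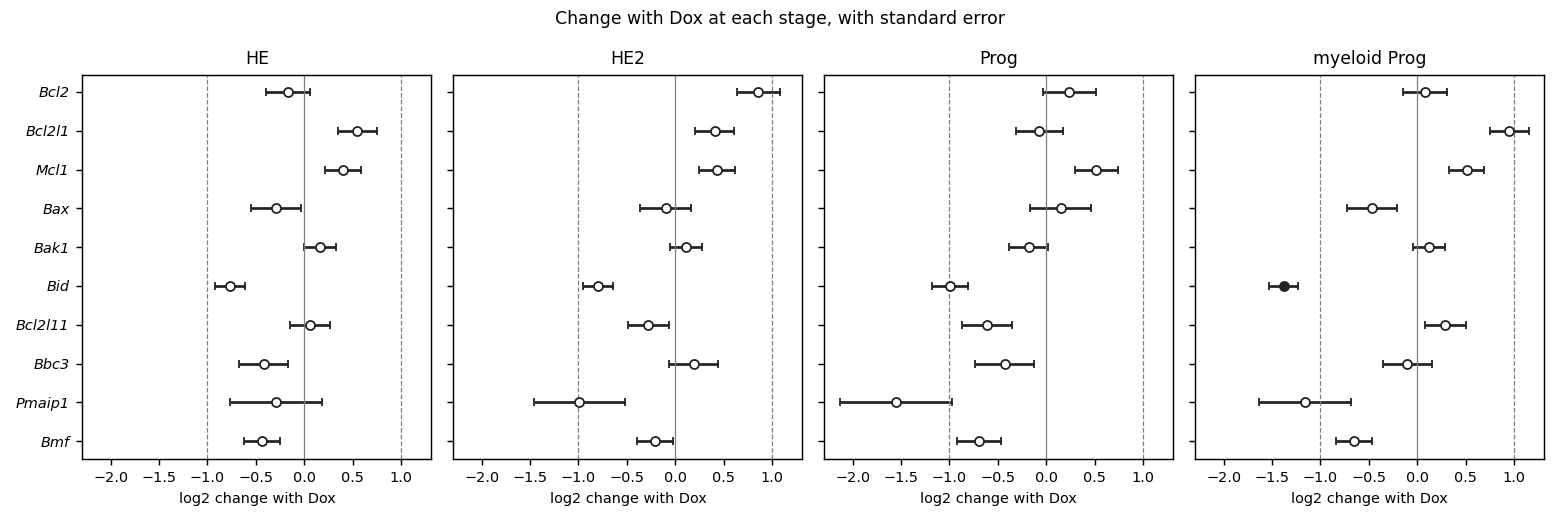
Change with Dox of each of the 10 members (log2, induced minus uninduced) in HE, HE2, progenitors (Prog) and myeloid progenitors (myeloid Prog), with the standard error of the fit as bars. The dashed lines mark a 2-fold change and the filled circle marks the 1 call, *Bid* in myeloid progenitors at -1.38, and *Bid* lies left of 0 in all 4 panels.

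*Bid*, the BH3-only gene whose product is cut by caspase-8 and carries a death receptor signal to the mitochondrion, was lower with Dox at all 4 stages. In HE it read 10.96, 10.86 and 11.07 without Dox and 10.08, 10.23 and 10.27 with Dox. In HE2 it read 11.22, 11.14 and 11.18 without and 10.59, 10.15 and 10.38 with Dox. Every induced array of both stages lay below every uninduced array, and the change was -0.77 (SE 0.153, adjusted P 0.00172) in HE and -0.80 (SE 0.153, adjusted P 0.00124) in HE2.

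Progenitors held more *Bid* and kept the gap. Their uninduced arrays read 12.32 and 12.22 and their induced arrays 11.37 and 11.21, a change of -0.99 (SE 0.187, adjusted P 0.0032) that was 1.98-fold and so just short of the fold threshold. In myeloid progenitors *Bid* read 13.50, 13.01 and 13.03 without Dox and 11.86, 11.79 and 11.73 with Dox. It fell by 1.38 on the log2 scale (SE 0.153, adjusted P 5.52e-06), or 2.61-fold, and the highest induced array stood below the lowest uninduced one by more than the spread within either group. The induced myeloid arrays lay below both uninduced progenitor arrays of the fit, which were on other slides, but the further uninduced progenitor array, on the same slide 3, read 11.80, within their range.

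*Bid* was the only member with an unadjusted P of at most 0.001 at all 4 stages. Among all tested genes, 14 (0.0921%) were lower with Dox at that P at every stage, and 349 of the 14920 genes measured on all arrays (2.34%) had all induced arrays below all uninduced arrays of every stage. The difference was also seen within slides. Within slide 1 the change was -0.83 in HE, -0.59 in HE2 and -0.95 in progenitors, and within slide 2 it was -0.82 in HE and -0.91 in HE2. All myeloid arrays shared slide 3, where induced progenitor 2 also read 0.59 lower than the further uninduced array (log2 difference -0.59). With 1 array left out, progenitors passed the threshold without uninduced progenitor 2 (-1.04) or without induced progenitor 1 (-1.07), where 1 array stood for its group and its spread was assumed to be that of the other groups. Fitting 2 groups at a time, the unadjusted P was 0.00428 in HE, 0.00264 in HE2 and 0.00752 in progenitors, and with slides as a block it was 0.00155 in progenitors.

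**Figure D2:**
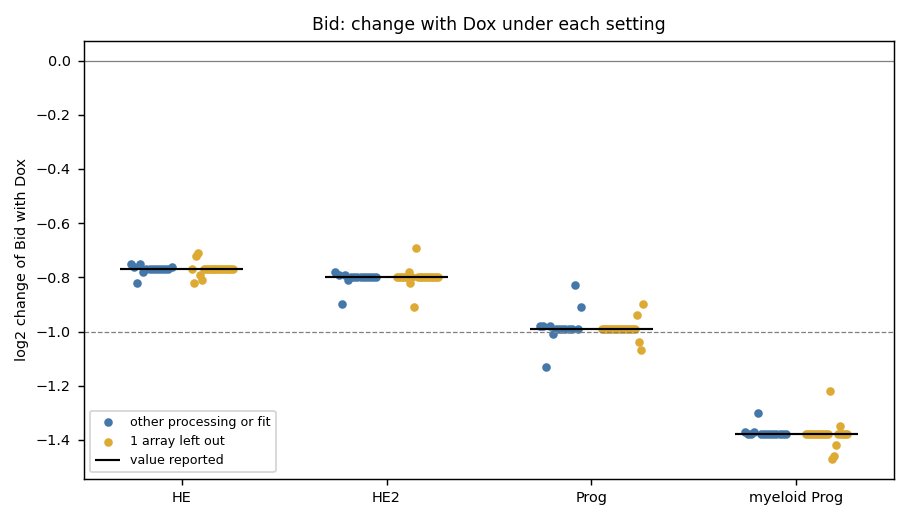
Change of *Bid* with Dox (log2) at the 4 stages under each of 14 other ways of processing or fitting (blue) and with each of the 22 arrays left out in turn (yellow); the black line is the value reported and the dashed line is 2-fold. All values lie below 0, with ranges of -0.82 to -0.71, -0.91 to -0.69, -1.13 to -0.83 and -1.47 to -1.22 from left to right.

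The size of the *Bid* difference was compared between stages as an interaction. The change in myeloid progenitors differed from that in HE by -0.61 (SE 0.216, unadjusted P 0.0108, adjusted P 0.112), with a 95% interval from -1.07 to -0.16, and was not called. HE2 against HE differed by -0.03 with an interval from -0.49 to 0.42. Over all 10 members, 0 were called for any of 4 such terms (HE2 minus HE, progenitors minus HE2, myeloid progenitors minus progenitors, myeloid progenitors minus HE), beside 1.34%, 0.645%, 1.5% and 4.72% of genes, and 1, 0, 2 and 1 members had an unadjusted P of at most 0.05 in limma, as had 8.62%, 8.1%, 12.5% and 16.3% of genes.

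Other genes moved with Dox beside *Bid*. Of 8 myeloid markers, 3 fell in HE2 (*Mpo*, *Spi1*, *Csf1r*) and 2 in progenitors (*Prtn3*, *Spi1*), and their summed intensity was 11300 to 16900 without and 3960 to 5480 with Dox in HE2, 36400 to 45300 and 20800 to 25700 in progenitors, and 22800 to 37400 and 17300 to 23300 in myeloid progenitors. In HE and in myeloid progenitors, 0 of the 8 were called, and their summed intensity in HE was 2220 to 4820 without and 1650 to 2570 with Dox. Of 6 endothelial markers, 2 rose at HE2 and 2 at the progenitor stage, and 5 rose in myeloid progenitors, where their summed intensity was 8030 to 11800 without and 39800 to 48200 with Dox. Of 5 erythroid markers, 3, 3, 4 and 0 rose at the 4 stages, and their summed intensity in HE was 31600 to 42600 without and 180000 to 358000 with Dox. Of 6 proliferation markers, 0 were called at any stage, with a summed intensity of 195000 to 208000 without and 139000 to 173000 with Dox in myeloid progenitors. Of 5 cardiac and smooth muscle markers, 1 rose (*Myl7*) and 1 fell (*Acta2*) in HE and 3 fell in HE2 (*Actc1*, *Acta2*, *Tagln*), with a summed intensity of 104000 to 235000 without and 36500 to 49500 with Dox in HE, and 30300 to 105000 against 11800 to 12600 in HE2. Of 4 epithelial markers 2 were tested, of which *Krt18* fell in HE and both *Krt8* and *Krt18* in HE2, with sums of 24600 to 60700 against 6360 to 10300 and of 12700 to 29900 against 2850 to 3600. Of 5 mesenchymal markers, *Col1a1* and *Pdgfrb* fell at both of these stages and *Col3a1* rose in HE, and of 6 haematopoietic markers *Itga2b* fell in HE and *Gata1* rose in HE2. At the later stages the calls in these 4 lists were *Tnnt2*, which rose in progenitors and myeloid progenitors, and *Pdgfrb*, which fell in myeloid progenitors. The part of these shifts in the *Bid* result was not tested.

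Among the other BH3-only members, *Pmaip1* and *Bmf* had log2 changes below 0 at all 4 stages and passed the threshold at none. *Pmaip1*, which encodes the MCL1-binding protein NOXA, read 8.08, 7.77 and 7.38 in uninduced HE2 and 7.34, 6.85 and 6.06 in induced HE2. It read 10.06 and 9.13 against 8.86 and 7.24 in progenitors. In myeloid progenitors it read 10.04, 10.21 and 10.04 against 8.38, 9.01 and 9.43. At these 3 stages the groups did not overlap, and the changes were -0.99 (SE 0.473), -1.55 (SE 0.579) and -1.16 (SE 0.473), with adjusted P values of 0.17, 0.138 and 0.123. In HE the groups overlapped, with a change of -0.29 (SE 0.473). The progenitor change rested on 2 arrays a group that lay far apart: it was -2.36 without induced progenitor 1 and -0.74 without induced progenitor 2. *Pmaip1* had the widest spread of the members, with an SD of up to 1.14 among induced progenitors, and induced HE array 3 was not well above background. Within slides the change was 0.12 and -0.07 in HE, -0.58 and -0.93 in HE2 and, on slide 1, -1.21 in progenitors.

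*Bmf*, whose product is tied to the cytoskeleton in healthy cells, read 10.89, 11.11 and 11.14 in uninduced HE and 10.40, 10.86 and 10.57 in induced HE. Its myeloid progenitor arrays read 11.09, 11.54 and 11.49 without and 10.65, 10.72 and 10.79 with Dox. Groups did not overlap in HE, progenitors and myeloid progenitors, and overlapped in HE2. In stage order the changes were -0.44 (SE 0.186), -0.21 (SE 0.186), -0.69 (SE 0.227) and -0.65 (SE 0.186), the last with an adjusted P of 0.0236. Non-overlap of this kind is common in groups this small: 10.9%, 15.3%, 26.3% and 22.7% of genes had all induced arrays below all uninduced ones at the 4 stages. Within slides 1 and 2 the change of *Bmf* was -0.60 and -0.42 in HE. In HE2 it was -0.67 and 0.13, so the slides differed in sign there, and on slide 1 it was -0.66 in progenitors.

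*Bcl2l11*, which encodes BIM, and *Bbc3*, which encodes the p53 target PUMA, showed no shared direction over the stages. *Bcl2l11* differed by 0.06, -0.28, -0.61 and 0.29, and its groups did not overlap in progenitors, where it read 7.98 and 7.44 without and 7.40 and 6.80 with Dox. *Bbc3* differed by -0.42, 0.19, -0.43 and -0.10, with overlapping groups at each stage. Their adjusted P values lay between 0.191 and 0.909.

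**Figure D3:**
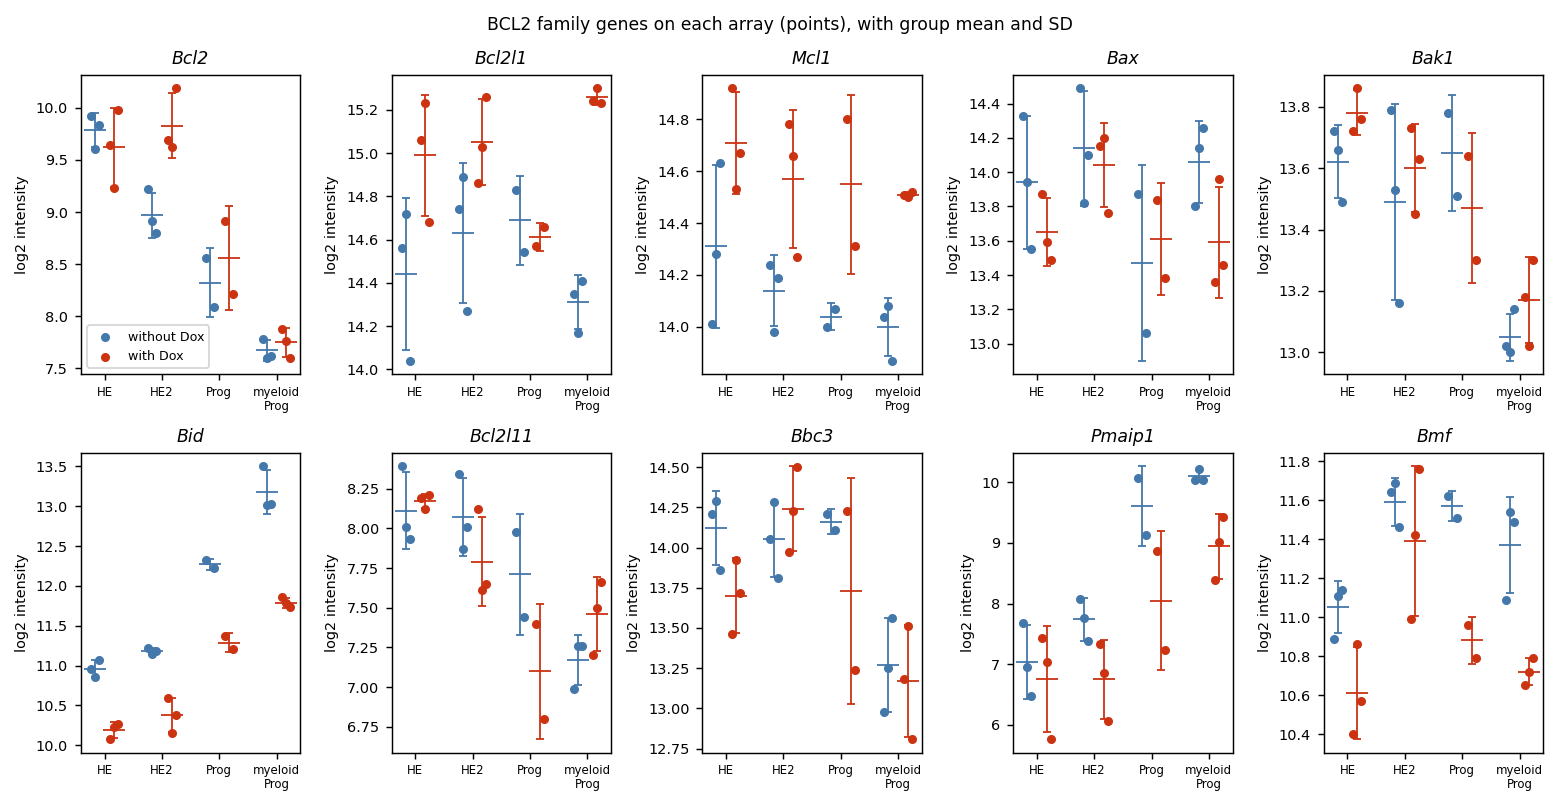
Log2 intensity of each of the 10 members on every array of the fit (points), without Dox in blue and with Dox in red, with the group mean and SD (2 arrays a group in progenitors, Prog, and 3 elsewhere). *Bid* reads from 10.08 to 13.50, rises from left to right and has red points below blue at each stage, and the blue points of *Bcl2* lie lower at each later stage, with red above blue in HE2; each panel has its own vertical scale.

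Among the pro-survival genes, *Mcl1*, whose short-lived protein blocks BAK, had log2 changes above 0 with Dox at all 4 stages. The changes were 0.40 (SE 0.184), 0.43 (SE 0.184), 0.52 (SE 0.225) and 0.51 (SE 0.184), or 1.32- to 1.43-fold, with adjusted P values of 0.168, 0.124, 0.203 and 0.076. Scaling to the 75th percentile gave 0.25, 0.23, 0.18 and 0.36. In myeloid progenitors the 3 uninduced arrays read 14.04, 14.08 and 13.87 and the 3 induced arrays 14.51, 14.50 and 14.52. The groups did not overlap at HE2, progenitors and myeloid progenitors, as for 17%, 22.6% and 23.9% of genes with higher induced arrays, and in HE they did, where the change was 0.78 within slide 1 and -0.03 within slide 2. The second *Mcl1* probe gave 0.23, 0.70, 0.41 and 0.51. A log2 change above 0 at all 4 stages was found for 18.7% of all genes and one below 0, as for *Bid*, *Pmaip1* and *Bmf*, for 21.4%.

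*Bcl2l1* had its largest change with Dox in myeloid progenitors. It read 14.35, 14.17 and 14.41 there without Dox and 15.24, 15.30 and 15.23 with Dox, and the change of 0.95 (SE 0.201, adjusted P 0.00314), or 1.93-fold, passed the P threshold but not that of 2-fold. Scaling to the 75th percentile gave 0.74 (unadjusted P 0.0183), and without uninduced myeloid progenitor 2 the change was 0.88 (unadjusted P 0.00135). The groups overlapped at the other stages, with changes of 0.55 in HE (SE 0.201), 0.41 in HE2 (SE 0.201) and -0.07 in progenitors (SE 0.246). The response in myeloid progenitors exceeded that in progenitors by 1.02 (SE 0.317, unadjusted P 0.00482, adjusted P 0.15), which was not called. It was called when only the groups compared were fitted (1.02, unadjusted P 0.000728) or both probes averaged (1.27, unadjusted P 0.000842). Against HE the response in myeloid progenitors differed by 0.40 (SE 0.284), with a 95% interval from -0.2 to 1, and was not called. The second probe gave 0.79 in myeloid progenitors and 0.23 in HE, but -0.41 in HE2, where the probes disagreed in sign, and -0.72 in progenitors.

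The largest difference of *Bcl2* with Dox was in HE2. It read 9.22, 8.91 and 8.80 there without and 9.69, 9.62 and 10.19 with Dox, a change of 0.86 (SE 0.225, unadjusted P 0.00125, adjusted P 0.0125) with no overlap, short of the threshold. The change was 0.62 within slide 1 and 1.11 within slide 2. In HE the groups overlapped, with a change of -0.17 (SE 0.225), and the difference between these responses was 1.03 (SE 0.318, unadjusted P 0.00448, adjusted P 0.177), not called. In progenitors and myeloid progenitors the changes were 0.24 (SE 0.275) and 0.08 (SE 0.225).

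The effectors *Bax* and *Bak1*, which make the pore, were measured at similar intensity with and without Dox. *Bax* differed by -0.29, -0.10, 0.15 and -0.47 over the 4 stages, with overlapping groups at each. *Bak1* differed by 0.16, 0.11, -0.18 and 0.12. For *Bak1* in myeloid progenitors the 95% interval ran from -0.23 to 0.46, and for *Bax* from -1.02 to 0.07, so a 2-fold decrease lay outside the first and just inside the second. The groups of *Bak1* in HE met at 13.72, with 13.72, 13.66 and 13.49 against 13.72, 13.86 and 13.76.

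Across the uninduced stages, *Bid* and *Bcl2* ran in opposite directions. Among uninduced arrays the called members numbered 0 of 10 from HE to HE2, 1 from HE2 to progenitors and 0 from progenitors to myeloid progenitors, beside 5.07%, 5.39% and 13.9% of all genes, and 2, 4 and 5 members had an unadjusted P of at most 0.05 in limma, as had 22.4%, 18.2% and 43.3% of genes. *Bid* had group means of 10.96, 11.18, 12.27 and 13.18 in the order of the stages. It rose by 1.1 from HE2 to progenitors (SE 0.171, adjusted P 0.00027), as 1.78% of genes did, by 1.15 within slide 1 and 1.05 within slide 2. From HE to HE2 the difference was 0.21 (SE 0.153, adjusted P 0.464), and from progenitors to myeloid progenitors it was 0.90 (SE 0.171, adjusted P 0.000633), short of 2-fold. The further array of uninduced progenitors read 11.80, and with it as replicate 3 the step from HE2 was 0.94, no longer called, and the step to myeloid progenitors 1.06, now called. Progenitors and myeloid progenitors lay on different slides, so stage and slide cannot be told apart for that step in these arrays, apart from the further array, which read 1.38 below the myeloid mean on the shared slide.

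*Bcl2* had a lower uninduced mean at each later stage, 9.79, 8.97, 8.32 and 7.67 in the same order. No step passed the threshold by itself: the differences were -0.81 (SE 0.225, adjusted P 0.025), -0.65 (SE 0.251, adjusted P 0.146) and -0.66 (SE 0.251, adjusted P 0.0521), though the groups of neighbouring stages did not overlap at any step, with the later stage lower, as for 13.3%, 20.3% and 39% of genes. With slides as a block in limma the last of these *Bcl2* steps was 0.01 (unadjusted P 0.975). On the shared slide 3 the uninduced myeloid mean of *Bcl2* differed from the further array by -0.63. Stage and slide cannot be told apart for that step. *Pmaip1* was higher in progenitors than in HE2 by 1.85 (SE 0.529, adjusted P 0.0351), 2.14 within slide 1 and 1.75 within slide 2, and was called with slides as a block (2.00, unadjusted P 4.36e-05). From the first stage to the last, a comparison added after these values were seen, *Bid* rose by 2.21 (SE 0.153, adjusted P 1.23e-09), *Pmaip1* rose by 3.06 (SE 0.473, adjusted P 3.05e-05) and *Bcl2* fell by 2.12 (SE 0.225, adjusted P 3.06e-07). These 3 of 10 members stand beside 26.3% of all genes called over the same span, and HE and myeloid progenitors share no slide.

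The other members moved less over the uninduced stages. From progenitors to myeloid progenitors *Bak1* and *Bbc3* differed by -0.59 (SE 0.185, adjusted P 0.0201) and -0.89 (SE 0.28, adjusted P 0.0208), and with slides as a block *Bbc3* turned to 0.09 and *Bak1* was -0.35 (unadjusted P 0.258). *Bak1* ranged from -0.95 to -0.35 over the alternatives, and on the shared slide 3 the uninduced myeloid mean differed from the further array by -0.26. Over the whole span *Bcl2l11* differed by -0.94 (SE 0.211, adjusted P 0.00113), just short of 2-fold, and *Bcl2l1*, *Mcl1*, *Bax* and *Bmf* by -0.13, -0.31, 0.12 and 0.33. Markers of other cells changed along the same steps. From HE2 to progenitors without Dox, where *Bid* was called, 3 of 6 endothelial markers fell (*Cdh5*, *Esam*, *Emcn*), from a summed intensity of 40200 to 49400 to one of 16100 to 16600, and 3 of 8 myeloid markers rose (*Mpo*, *Prtn3*, *Spi1*), from 11300 to 16900 to a sum of 36400 to 45300. At the step from progenitors to myeloid progenitors all 5 erythroid markers rose, from a summed intensity of 171000 to 206000 to one of 1140000 to 1250000, and of the 8 myeloid markers 3 fell (*Mpo*, *Prtn3*, *Spi1*) and 1 rose (*Csf1r*). The part of these shifts in the members' stage changes was not tested.

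With Dox, *Bcl2* was the member that passed the threshold between stages. Called members numbered 0 of 10 from HE to HE2 and 1 from HE2 to progenitors, beside 3.1% and 7.36% of all genes, with 2 and 5 members at an unadjusted P of at most 0.05 in limma, as were 18.3% and 26.4% of genes. *Bcl2* differed by 0.22 (SE 0.225, adjusted P 0.688) from induced HE to induced HE2 and then fell by 1.27 on the log2 scale (SE 0.251, adjusted P 0.00188) to progenitors, as 5.34% of genes did, which read 8.91 and 8.21. That call was lost without induced progenitor 2 (-0.92, with 1 array left in its group and the spread taken from the other groups), with slides as a block (-0.97), or when only these groups were fitted (unadjusted P 0.00596), and within slide 1 the difference was -0.77. *Bid* differed by 0.18 (SE 0.153) at the first step and by 0.91 (SE 0.171, adjusted P 0.00123) at the second, and passed 2-fold without induced HE2 array 1 (1.02). *Bmf* differed by 0.78 (SE 0.186, unadjusted P 0.000553, adjusted P 0.0171) from induced HE to HE2. From induced HE2 to progenitors the same 3 endothelial markers fell, from a sum of 83700 to 101000 to one of 32200 to 40300, and 4 of 8 myeloid markers rose (*Mpo*, *Spi1*, *Csf1r*, *Fcgr3*), from 3960 to 5480 to a sum of 20800 to 25700, and their part in the change of *Bcl2* was not tested. These steps share their arrays with the comparisons of Dox at each stage.

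The promoter letters of the members were read for the RUNX motif, since the DNA-binding part of RUNX1-ETO is that of RUNX1. The windows are the 250 bases before each start of transcription in RefSeq (GRCm38.p6), 5′ to 3′ on the strand of the gene, and the motif was TGTGGT or TGCGGT on either strand, neither being part of the other. Windows were read for 9 of the 10 members, with 16 starts in all, and *Pmaip1* was not among them. The motif was in 4 of these 16 windows, of *Bak1*, *Bcl2l11* (2 windows) and *Bmf*, against 18.6% of 32851 windows over all genes. Below are the window of *Bid*, the member called with Dox, then 1 of *Bmf*, which alone held 3 matches, and 1 of *Bcl2l11*, with each match in capitals (ACCACA and ACCGCA are the motifs on the other strand, and the last 2 matches of *Bmf* share a base).
Bid, chr6:120916825-120917074, minus strand: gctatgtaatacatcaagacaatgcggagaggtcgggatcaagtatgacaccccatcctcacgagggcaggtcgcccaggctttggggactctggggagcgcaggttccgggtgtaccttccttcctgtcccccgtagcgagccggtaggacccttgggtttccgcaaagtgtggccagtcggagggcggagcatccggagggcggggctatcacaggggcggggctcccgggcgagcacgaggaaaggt
Bmf, chr2:118547600-118547849, minus strand: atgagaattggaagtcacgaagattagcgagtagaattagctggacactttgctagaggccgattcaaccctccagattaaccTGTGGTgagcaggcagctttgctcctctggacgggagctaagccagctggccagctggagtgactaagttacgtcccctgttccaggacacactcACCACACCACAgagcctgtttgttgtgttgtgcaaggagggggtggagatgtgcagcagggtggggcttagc
Bcl2l11, chr2:128127325-128127574, plus strand: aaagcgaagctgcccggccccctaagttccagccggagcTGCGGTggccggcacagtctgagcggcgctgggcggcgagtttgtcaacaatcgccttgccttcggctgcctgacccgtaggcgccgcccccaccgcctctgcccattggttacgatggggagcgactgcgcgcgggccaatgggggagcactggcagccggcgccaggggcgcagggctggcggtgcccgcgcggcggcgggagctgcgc
The *Bid* window held no match to these letters. The *Bmf* and *Bcl2l11* windows are each 1 of several starts of their genes, and the arrays do not tell starts apart.

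Outside the 10 members, 12 of 16 other BCL2 family genes were tested, and *Bcl2a1a*, *Bcl2a1b*, *Bcl2l10* and *Hrk* were not. With Dox 1, 1, 2 and 2 of the 12 were called, in the order of the stages, beside 7.09%, 7.22%, 3.73% and 6.31% of all tested genes. The largest changes were those of *Bik*, a BH3-only gene of the endoplasmic reticulum. It ranged from 6.66 to 7.77 in uninduced and 9.07 to 10.66 in induced HE2 and rose by 2.99 (SE 0.56, adjusted P 0.00108). In progenitors it ranged from 5.99 to 6.44 without and 9.84 to 10.09 with Dox and rose by 3.76 (SE 0.686, adjusted P 0.00237). In HE and myeloid progenitors it differed by 1.57 and 1.72 (adjusted P 0.0684 and 0.0486). The differences of *Bik* had the sign opposite to those of *Bid* at each stage.

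The hypoxia- and mitophagy-linked pair *Bnip3* and *Bnip3l* passed the threshold at 1 stage each, *Bnip3* in HE by 1.56 (SE 0.321, adjusted P 0.00225) and *Bnip3l* in progenitors by 1.18 (SE 0.279, adjusted P 0.0155). Both were also higher with Dox in HE2 without being called. There *Bnip3* ranged from 12.29 to 12.59 without and 13.25 to 14.15 with Dox, and *Bnip3l* from 14.07 to 14.79 and from 15.12 to 15.39. In myeloid progenitors *Bcl2l14* rose by 1.43 (SE 0.194, adjusted P 4.8e-05). It was dim there without Dox (5.06 to 5.69) and ranged from 6.67 to 7.24 with Dox. At the same stage *Bcl2a1c*, of the pro-survival A1 group, fell by 1.05 (SE 0.199, adjusted P 0.0012). The A1 genes are near-identical copies, so a probe may read more than 1 of them. Among uninduced cells 1 of the 12 rose from HE to HE2 and 2 from HE2 to progenitors, beside 5.07% and 5.39% of all genes called. From progenitors to myeloid progenitors, which lay on different slides, 6 rose and 2 fell, beside 13.9%, and *Bik* had the largest rise, 3.44. *Bcl2a1d* rose by 2.01 from HE, where it was dim (4.87 to 5.08), to HE2 and by 2.80 from HE2 to progenitors. The median of the 12 with Dox was 0.51, 0.43, -0.17 and 0.17 over the 4 stages.

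**Figure D4:**
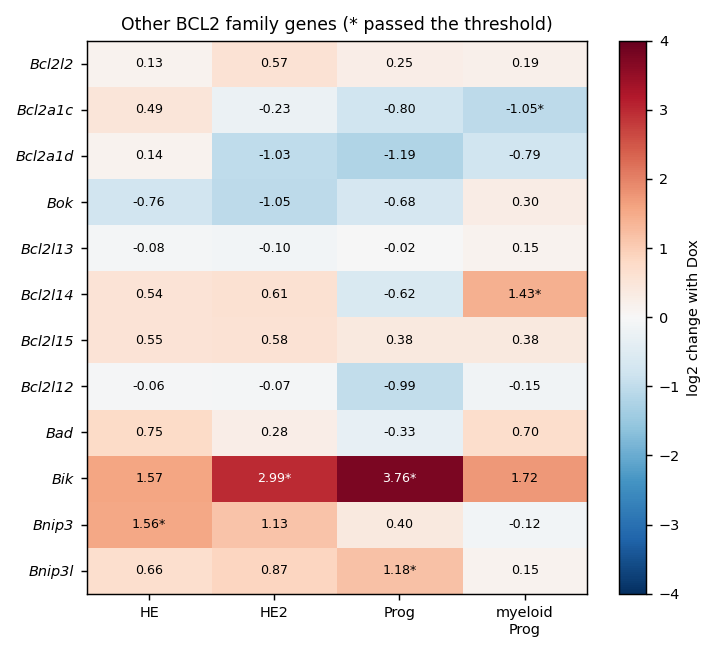
Change with Dox (log2, colour and number) of the 12 other BCL2 family genes that were tested, at HE, HE2, progenitors (Prog) and myeloid progenitors (myeloid Prog); an asterisk marks a call. *Bik* has the deepest red, 2.99 in HE2 and 3.76 in progenitors, and calls are spread over 5 genes.

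Downstream of the pore, 21 genes of the apoptosome, caspases and inhibitors of apoptosis were tested over the 4 stages with Dox. Among those named here, *Xiap*, which inhibits caspases, had the largest positive difference in myeloid progenitors, 0.70 (SE 0.168, adjusted P 0.00799). The largest negative differences were those of *Birc5* (survivin) in HE and myeloid progenitors, -0.74 and -0.47, and of *Endog*, a mitochondrial nuclease, in HE2 and progenitors, -0.83 and -1.22. The medians of the 21 were -0.06, 0.11, 0.00 and 0.07.

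Of 16 genes known to control the members, 2 were called in HE and 0 at the other stages, beside 7.09% of all tested genes in HE and 7.22%, 3.73% and 6.31% at the others. *E2f1*, a cell cycle factor that can induce BH3-only genes, fell in HE by 1.21 (SE 0.178, adjusted P 0.000105), and its difference was -0.96 in HE2 (SE 0.178, adjusted P 0.00104). *Trib3*, a stress gene, rose in HE by 1.44 (SE 0.293, adjusted P 0.00211). The largest differences at the other stages were 0.92 for *Stat5b* and -0.72 for *Myc* in progenitors, and 0.90 for *Trib3* and -0.56 for *E2f1* in myeloid progenitors.

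The genes most like *Bid* over the 8 group means were *Atp8b4* (Pearson r 0.991), *Mknk1* (0.988) and *Ak8* (0.988), where each mean shares its arrays between genes and the r is a description. Of these *Ak8* fell with Dox in progenitors by 1.09 (SE 0.238, adjusted P 0.00947) and in myeloid progenitors by 1.35 (SE 0.194, adjusted P 9.07e-05). *Atp8b4* and *Mknk1* differed with Dox by -0.39 and -0.35 in HE and by -0.81 and -0.65 in myeloid progenitors, and were called at no stage.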

How the data were processed

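The authors deposited the median intensity of each spot and of its local background, 1 file per array, as read by Agilent Feature Extraction (10.7.1.1 in the submitters' processing notes, 10.7.3.1 in the file headers), without normalization. They also deposited log2 values after normexp and quantile normalization, used here as an alternative. The lowest correlation per array with the values used was 0.9725, and the largest absolute difference of a member value was 1.65. The number of columns left out was 0.

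From the intensities of all 23 arrays the background was corrected with normexp (offset 16), 3671 control spots and flagged outliers were left out, arrays were quantile normalized, and spots of a probe averaged. Accessions matched RefSeq names (GRCm38.p6) for 20145 genes. Each gene kept its brightest probe, and genes that reached 6.5 (log2) on 1 array or more, 15202 in number, were tested with lmFit and eBayes of limma 3.58.1 (R 4.3.3, data.table version 1.17.8), 1 mean per group, 22 arrays, 14 residual degrees of freedom. Figures and promoter windows were made with Python 3.11.15. The number of arrays limits the precision. On simulated data the fit recovered 77.5, 83, 70 and 82% of 200 of 14920 genes shifted by 1.5 log2 in HE, HE2, progenitors and myeloid progenitors.

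Arrays were grouped by their labels. Induced myeloid progenitor 3 carries 2 labels, biological in the title and technical in the source name, and was used. The titles name all arrays of the fit biological replicates. Nothing says that all of them came from separate cultures, so P values measure the spread between these arrays, which may be technical. Among comparisons with 3 pairs of replicate numbers, every pair of deviations had a positive r for uninduced HE and HE2 only (r 0.394 to 0.795). Replicates of the same number also shared a slide there, so number and slide cannot be told apart. With 2 pairs, r was 0.199 to 0.381 for uninduced HE2 and progenitors, 0.118 to 0.162 for induced ones and 0.229 with Dox in progenitors. It was -0.173 to -0.129 for uninduced progenitors and myeloid progenitors. The members and lists were chosen with earlier results of these data known. Named were all 10 members, list genes called with Dox or with the largest change in each direction, and the 3 genes most like a called member. The alternatives concerned background correction, scaling, probes, filters, thresholds, samples, blocks and left-out arrays. A result of 1 list gene is not reported here.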

Additional observations from a re-analysis of the deposited data

How the results depend on the processing

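Each result was recomputed under 14 other settings and with each of 22 arrays left out. The call of *Bid* with Dox in myeloid progenitors held under all 36. The direction of *Bid* and *Bmf* (lower) and *Mcl1* (higher) at all 4 stages did too, with *Bmf* in HE2 as near 0 as -0.01, while *Pmaip1* in HE ranged from -0.64 to 0.20. Many of the 36 could not alter a direction: other thresholds or filters, and arrays left out at another stage, leave the log2 change of a stage as it is. Called members with Dox, 1 of 40 member-by-stage tests, became 2 with scaling to the 75th percentile or with early stages and myeloid progenitors normalized apart (*Bid* in progenitors in both, -1.13 and -1.01), 7 at an adjusted P of at most 0.05 at any fold (where all genes went from 6.09% to 13% of tests), and 1 to 2 with an array left out. The 1 call among uninduced stages became 2 with the P threshold set on adjusted values at 0.05 (2-fold kept) or with slides as a block, 6 at that P at any fold (all genes 8.13% to 17.3%), and stayed at 1 in number with an array left out. The 1 call among induced stages became 3 at that P at any fold (all genes 5.23% to 9.9%), 0 with only the groups compared or slides as a block, and 0 to 2 with an array left out. The 0 calls for differences in response became 1 with a gene's probes averaged or with only the groups compared. The 9 list calls with Dox became 31 at an adjusted P of at most 0.05 at any fold and 8 to 11 with an array left out. *Bbc3* from progenitors to myeloid progenitors reversed to 0.09 with slides as a block. The replicate block gave 1, 1, 1 and 0 member calls, as without it, and 10 list calls. Scaling to the 75th percentile moved the median of all genes to -0.194 in progenitors and -0.15 in myeloid progenitors with Dox and to -0.247 from uninduced progenitors to myeloid progenitors. Causes were not tested.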

Other observations

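*Bid* was 1 of 14 genes that were lower with Dox at an unadjusted P of at most 0.001 at every stage, and the other 13 are named here after their values were seen. They were *Cx3cl1* (a chemokine), *Fgd3*, *Ifitm1* and *Irf1* (both interferon-responsive), *Igsf8*, *Ndst1*, *Nrgn*, *Pik3r2* (a regulatory subunit of PI3 kinase), *Prtg*, *Srgap3*, *Tctex1d2*, *Tmem229b* and *Zfp296*. *Irf1* differed by -1.33, -0.91, -1.17 and -0.91 in HE, HE2, progenitors and myeloid progenitors, *Ifitm1* by -1.55, -2.66, -1.96 and -1.88, and *Nrgn* by -2.24, -1.98, -2.23 and -1.71. *Cx3cl1* and *Prtg* had their largest difference in HE, -2.90 and -2.83, and *Bid* had its largest in myeloid progenitors, -1.38.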
